A study of Mus musculus with 12 samples.

Results

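The genes described here are 44 that copy DNA or bring a cell into S phase, chosen by name: the replicative helicase and its loaders, the sliding clamp, the polymerases, nucleotide synthesis enzymes, the factors that copy chromatin, and the E2F and cyclin E genes. They are 44 of 55397 genes in the count table, and all 44 were among the 18264 genes that passed the low-count filter. RNA was sequenced from primary cultures of newborn (P0) mouse cortex at day in vitro 11, from 3 *Myt1l* (+/−) animals (numbers 505, 506 and 508) and 3 *Myt1l* (+/+) animals (510, 511 and 513), with 2 libraries per animal. The (+/−) animals carry a germline 7 bp frameshift deletion in exon 6 on 1 allele, and the (+/+) animals carry none. The labels give cortex, C57BL/6J and male for every sample, while the methods of the study name hippocampus or cortex and C57BL/6N zygotes. Cultures of both genotypes received 2 µM cytarabine (Ara-C) 3 days after plating. The study saw no decay of the mutant mRNA, so *Myt1l* counts cannot check the genotype, and *Myt1l* was at 89.0, 146 and 165 CPM in (+/−) and 119, 147 and 109 CPM in (+/+) animals. CPM are counts scaled to the TMM-normalised library size, and 1 library held 20181477 to 26594444 counts.

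Before S phase, the origin recognition complex, CDC6 and CDT1 load the MCM2-7 ring onto origins. CDC45 and the GINS complex turn that ring into the moving helicase, polymerase alpha-primase starts each new strand, and polymerases delta and epsilon extend it on the PCNA clamp. Cyclin E and the activating E2F factors drive the step into S phase, and many replication genes are themselves E2F targets, with the E2F motif close to their start sites. Postmitotic neurons do not replicate their genome, and many of these mRNAs are typical of glia, progenitors and other cells that can divide. Some members also serve DNA repair, and neurons express some as well. Which cells of these cultures the mRNAs came from was not measured. Ara-C is a deoxycytidine analogue that is phosphorylated in the cell, enters new DNA and stops its synthesis, and it is used to hold back dividing cells in neuronal cultures.

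The promoter sequences of 4 members are shown because these had the smallest unadjusted p-values among members with an E2F motif before the start site. The motif was searched as TTTCCCGC, TTTGGCGC, TTTCGCGC and TTTGCCGC on both strands, and capitals mark a match. Windows of 300 bases, 250 before and 50 from the start site on, came from RefSeq on GRCm38.p6, and 37 of the 44 members had at least 1. Position 0 is the first transcribed base by RefSeq. Only stretches that no exon of GENCODE covers were printed, except for *Gins3*, whose motif lies in the first exon of a longer transcript and is shown with 10 bases on either side. The *Uhrf1* stretch, chr17:56304063-56304312 (+), is intronic for longer *Uhrf1* transcripts, and its motif begins at −185. The *Pola1* stretch, chrX:93632156-93632405 (−), lies outside annotated genes, and its motif begins at −138. The *Cdc6* stretch, chr11:98907982-98908150 (+), is intronic for longer *Cdc6* transcripts, with the motif at −138 as well. The *Gins3* stretch is chr8:95633508-95633535 (+), with the motif at −41.
Uhrf1: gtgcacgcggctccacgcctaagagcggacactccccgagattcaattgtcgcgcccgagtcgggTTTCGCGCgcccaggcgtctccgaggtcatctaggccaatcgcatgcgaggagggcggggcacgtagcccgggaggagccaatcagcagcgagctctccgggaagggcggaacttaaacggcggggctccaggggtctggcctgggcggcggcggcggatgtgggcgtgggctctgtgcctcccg
Pola1: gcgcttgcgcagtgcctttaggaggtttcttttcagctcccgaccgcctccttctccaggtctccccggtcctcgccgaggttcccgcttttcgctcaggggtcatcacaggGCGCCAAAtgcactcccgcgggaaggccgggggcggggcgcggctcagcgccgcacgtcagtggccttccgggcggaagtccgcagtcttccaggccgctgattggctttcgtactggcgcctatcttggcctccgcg
Cdc6: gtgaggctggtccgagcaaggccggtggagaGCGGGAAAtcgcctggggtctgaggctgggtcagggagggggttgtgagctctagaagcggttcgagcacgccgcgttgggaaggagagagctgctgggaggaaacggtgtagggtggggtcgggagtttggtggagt
Gins3: cgagtgcggcGCGGGAAAgcgagtttga

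The question was whether the replication machinery differed between genotypes. Together the 44 members took 0.0492% to 0.0607% of all counts of an animal, and their summed level was 585, 549 and 551 CPM in the (+/−) animals and 510, 497 and 529 CPM in the (+/+) animals. No member was called at an adjusted p under 0.1 by edgeR's quasi-likelihood test with Benjamini-Hochberg adjustment, and neither was any other gene (0% of 18264, smallest adjusted p = 0.166). At an unadjusted p under 0.05, 9 members (20.5%) had a positive log2 fold change, (+/−) over (+/+), against 13.2% of all tested genes, and 2 (4.55%) a negative one, against 9.11%. This fit held no covariate, while genetic sex was a covariate in the study's model of bulk mouse data. With genetic sex as a covariate in edgeR, 2 members had a positive and 0 a negative log2 fold change at that threshold. Of all tested genes 6.92% and 3.06% did, so the excess of positive members was not seen in that fit. In 11 members (25.0%) each (+/−) animal lay above each (+/+) animal, against 15.5% of all genes, and in 2 (4.55%) below, against 13.5%. The groups overlapped in the other 31 members. The log2 fold change was positive in 30 and negative in 14 members, with a median of 0.13, where the median of all tested genes was 0.00. The standard errors (SE) of the members ran from 0.08 to 0.37.
A 3 against 3 permutation test cannot go below p = 0.1 (exact, two-sided), which every member with groups that do not overlap reached. In bulk RNA, fewer cells that express a gene and less of its RNA per cell cannot be told apart.

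**Figure D1:**
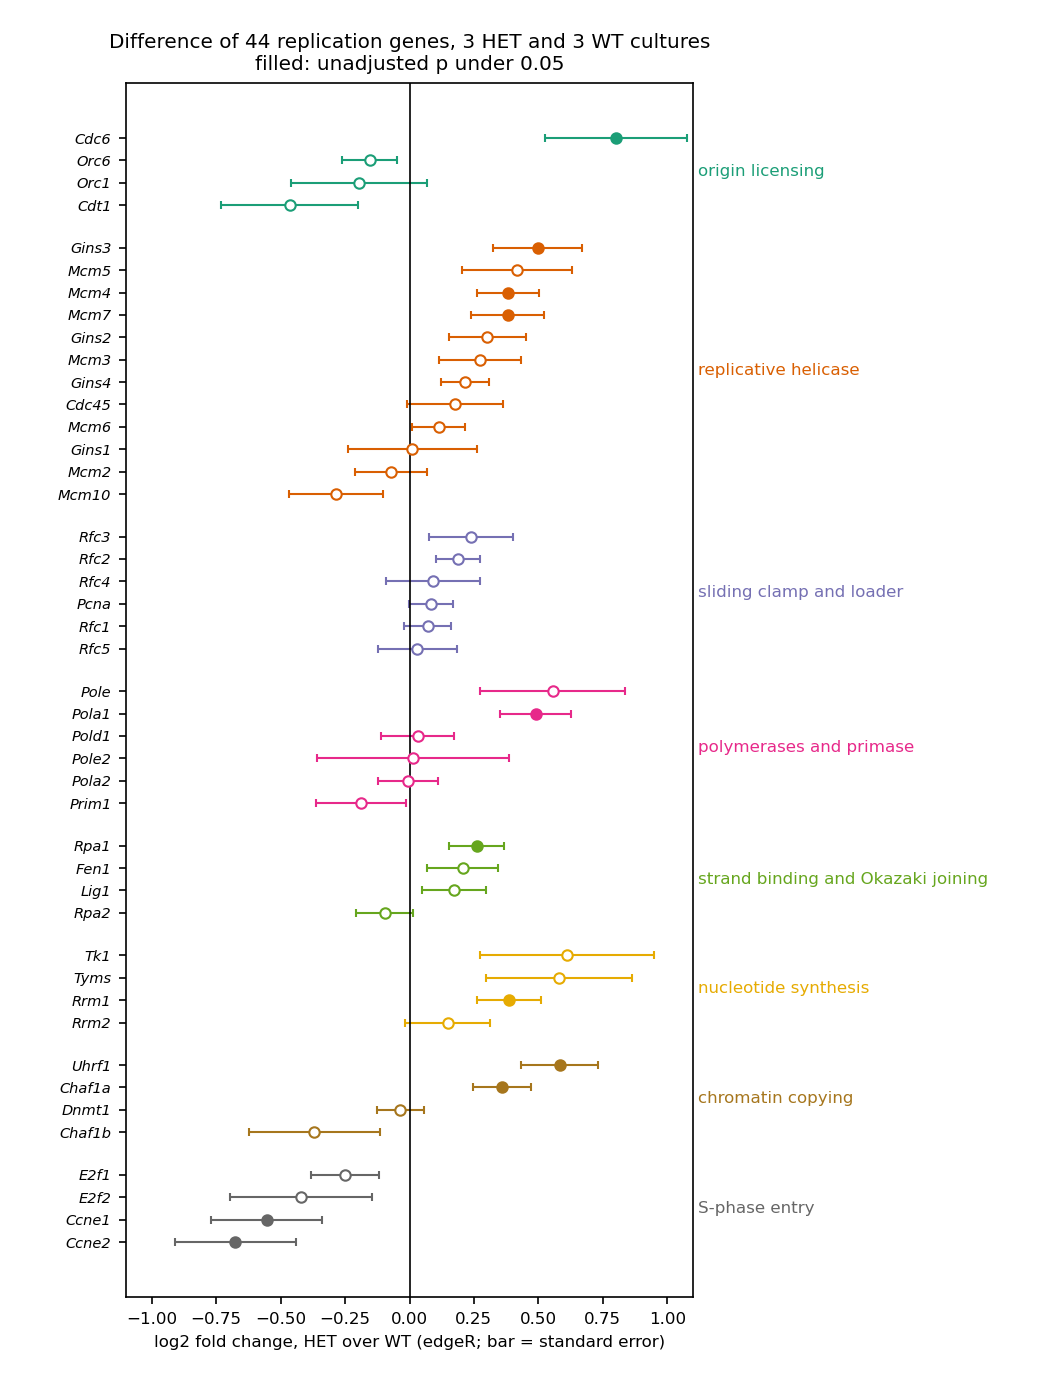
The log2 fold change of each of the 44 genes, HET (+/−) over WT (+/+), is plotted on the x axis by role, with bars of 1 standard error from edgeR and filled points for an unadjusted p under 0.05. Helicase and nucleotide synthesis genes lie mostly right of 0, and all 4 S-phase entry genes lie left of it, between −0.68 and −0.25.

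DESeq2 on the same 6 animals called 6 members at an adjusted p under 0.1. *Uhrf1*, *Pola1*, *Chaf1a*, *Mcm4* and *Rrm1* were called with a positive fold change, where 8.01% of 17200 genes were, and *Ccne2* with a negative one, where 4.57% were. Those 5 are the members with the smallest unadjusted p in edgeR, which did not call them. Without a low-count filter edgeR called *Uhrf1* alone among the members, where 3.16% of 32322 genes were called with a positive fold change.

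Among the licensing factors, which load the helicase onto origins, *Cdc6* had the smallest p. *Cdc6*, the ATPase that recruits CDT1 and MCM2-7 to the origin, was at 0.683, 0.748 and 0.836 CPM in the (+/−) animals and 0.557, 0.378 and 0.351 CPM in the (+/+) animals. The groups did not overlap, and the log2 fold change of 0.80 ± 0.27 (SE, edgeR adjusted p = 0.182) was the largest of the 44, but it rests on 15 to 34 counts per animal. *Cdt1*, which brings MCM2-7 to CDC6 and is destroyed once S phase begins, was at 2.29, 2.41 and 2.88 CPM against 4.71, 3.41 and 2.32 CPM. The (+/+) animals spread widely here, animal 513 lay among the (+/−) animals, and the log2 fold change was −0.46 ± 0.27 (SE, edgeR adjusted p = 0.307). It was −0.19 without animal 510 (edgeR adjusted p = 0.711) and −0.70 without animal 513 (edgeR adjusted p = 0.0890). *Cdt1* overlaps *Galnt2l* on the same strand, so its reads could be shared if exons coincide.
The origin recognition subunit *Orc6* had the highest CPM of this group, with 14.5, 16.9 and 14.8 CPM against 17.3, 18.2 and 15.9 CPM. Its groups overlapped (log2 fold change −0.16 ± 0.11 SE), as did those of *Orc1*, the ATPase subunit, which had 20 to 37 counts per animal (−0.19 ± 0.26 SE).

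Of the 12 replicative helicase genes 10 had positive log2 fold changes, and the median of the 12 was 0.24. Its summed level was 105 to 118 CPM in (+/−) and 88.9 to 97.0 CPM in (+/+) animals, and 3 of the 12 (25.0%, all positive, against 13.2% of all genes) had an unadjusted p under 0.05. *Mcm4*, a subunit of the catalytic MCM2-7 ring, was at 26.6, 23.6 and 24.1 CPM in the (+/−) animals and at 19.1, 16.4 and 21.6 CPM in the (+/+) animals. All (+/−) animals lay above all (+/+) animals, by a log2 fold change of 0.38 (95% interval 0.10 to 0.66, edgeR adjusted p = 0.171). *Gins3*, which encodes the PSF3 subunit of GINS, was at 2.58, 2.25 and 2.73 CPM against 1.63, 1.80 and 1.92 CPM. These groups did not overlap either, with a log2 fold change of 0.50 (95% interval 0.09 to 0.90, edgeR adjusted p = 0.187).
*Mcm7*, another ring subunit, was at 19.6, 15.6 and 17.8 CPM against 12.9, 12.02 and 15.9 CPM. The highest (+/+) animal, 513, passed the lowest (+/−) animal, and the log2 fold change was 0.38 (95% interval 0.05 to 0.71, edgeR adjusted p = 0.193). *Mcm7* overlaps *Cops6* and *Ap4m1* on the other strand, and whether the counting used strand is not stated in the labels or methods.
*Mcm5* had a log2 fold change of 0.42, which was 0.23 without (+/+) animal 510. *Mcm3* was at 0.27, and at 0.13 without (+/−) animal 505. *Mcm6* was at 0.11 and ran from 0.056 without animal 510 to 0.18 without 511, and *Mcm2* was at −0.07 with a 95% interval of −0.40 to 0.25. Of the other GINS genes, *Gins4* and *Gins2* had every (+/−) animal above every (+/+) animal (log2 fold changes 0.22 and 0.30), and *Gins1* was at 0.01 with an interval of −0.57 to 0.59. *Cdc45*, which joins GINS and MCM2-7 in the active helicase, was at 0.18 with groups that overlapped, and at 0.056 without animal 513.
*Mcm10*, needed to start the assembled helicase, ran the other way and is named here after its values were seen. It was at 1.32, 1.33 and 1.33 CPM in the (+/−) animals and 1.79, 1.56 and 1.50 CPM in the (+/+) animals. Each (+/−) animal lay below each (+/+) animal, with a log2 fold change of −0.29 ± 0.18 (SE, edgeR adjusted p = 0.348).

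**Figure D2:**
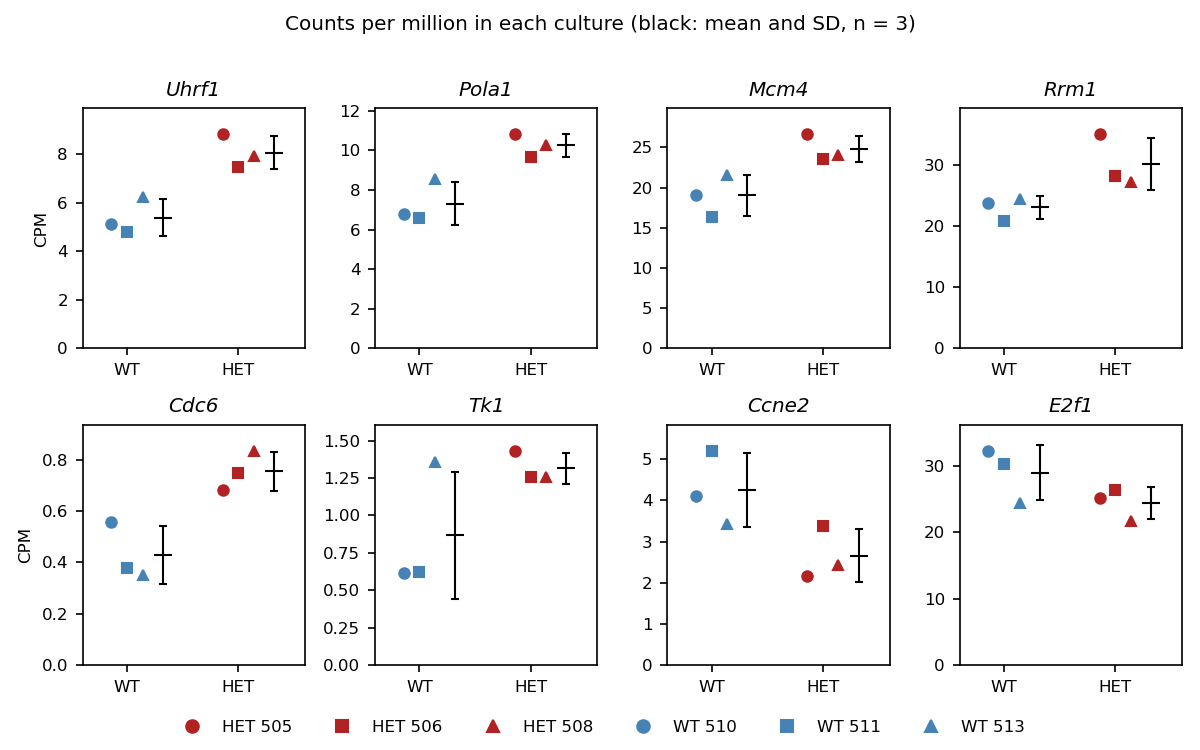
CPM (y axis, from 0) of 8 genes in each culture, HET (+/−) in red and WT (+/+) in blue, with the mean and SD of 3 in black. The groups separate in *Uhrf1*, *Pola1*, *Mcm4*, *Rrm1*, *Cdc6* and *Ccne2*, while WT 513 lies among the HET cultures in *Tk1* and *E2f1*.

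For the sliding clamp and its loader all 6 log2 fold changes were positive and ran from 0.03 to 0.24, and none had an unadjusted p under 0.05. *Rfc2*, a small subunit of the RFC clamp loader, was at 37.9, 34.7 and 37.0 CPM against 31.6, 30.8 and 33.9 CPM (log2 fold change 0.19 ± 0.08 SE, edgeR adjusted p = 0.230). It was the only one of the 6 whose groups did not overlap. That is 16.7%, close to the 15.5% of all genes with each (+/−) animal above each (+/+) animal. *Rfc3*, also a small subunit, was at 4.72, 3.91 and 3.84 CPM against 3.42, 3.20 and 3.93 CPM, with overlapping groups. *Pcna*, the clamp itself and a common marker of S phase, was at 33.6, 33.1 and 31.9 CPM against 30.4, 33.2 and 29.5 CPM. Its groups overlapped, and the 95% interval of its log2 fold change was −0.11 to 0.28. The large subunit *Rfc1* had the highest CPM of the group, at 47.4, 42.3 and 40.9 CPM against 43.3, 39.1 and 42.0 CPM, with overlapping groups, and its interval was −0.14 to 0.28. Pseudogene *Pcna-ps2* held 0.422% as many counts as *Pcna*.

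Of the 6 polymerase and primase genes, *Pola1* alone had an unadjusted p under 0.05. That is 16.7% with a positive log2 fold change, against 13.2% of all genes. *Pola1*, the X-linked catalytic subunit of polymerase alpha, was at 10.8, 9.68 and 10.3 CPM in (+/−) animals and 6.78, 6.61 and 8.55 CPM in (+/+) animals. Its groups were apart, with a log2 fold change of 0.49 (95% interval 0.17 to 0.81, edgeR adjusted p = 0.167). Of its partners in the same complex, *Pola2*, the accessory subunit, was at −0.01 (95% interval −0.27 to 0.26) and *Prim1*, the primase subunit, at −0.19 (−0.60 to 0.22), and whether these differ from *Pola1* was not tested. *Prim1* was at 1.94, 2.53 and 2.11 CPM against 2.46, 2.40 and 2.65 CPM.
*Pole*, the catalytic subunit of the leading strand polymerase epsilon, was at 3.24, 2.80 and 2.16 CPM against 1.58, 1.40 and 2.62 CPM. Animal 513 lay inside the (+/−) range, and the log2 fold change was 0.56 ± 0.28 (SE, edgeR adjusted p = 0.265), and 0.86 without it (edgeR adjusted p = 0.0660). *Pold1*, the catalytic subunit of polymerase delta and the member of this group with the highest mean CPM over all 6 animals, was at 11.1, 8.86 and 8.26 CPM against 9.74, 9.01 and 8.87 CPM. All 3 (+/+) values lay inside the (+/−) range. *Pole2*, with 19 to 37 counts per animal, was at 0.01 with an interval of −0.85 to 0.88.

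Of the genes for single-strand binding and Okazaki fragment joining, *Rpa1* had the highest level. *Rpa1*, the large subunit of the RPA complex that coats single-stranded DNA in replication and repair, was at 106, 97.5 and 105 CPM in (+/−) animals and 81.0, 78.6 and 97.9 CPM in (+/+) animals. Animal 513 passed (+/−) animal 506 by a narrow margin, and the log2 fold change was 0.26 (95% interval 0.01 to 0.51, edgeR adjusted p = 0.212). *Rpa2*, the middle subunit, was at −0.10 (95% interval −0.35 to 0.16). *Lig1*, the ligase that seals Okazaki fragments, was at 7.47, 6.69 and 7.15 CPM against 6.46, 5.88 and 6.58 CPM, with groups that did not overlap by a small gap (log2 fold change 0.17 ± 0.12 SE). *Fen1*, the flap endonuclease that trims them, was at 6.68, 7.41 and 7.35 CPM against 5.69, 5.83 and 7.07 CPM, with overlapping groups (0.21 ± 0.14 SE).

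Nucleotide synthesis had the highest median of the 8 groups, 0.48, with all 4 log2 fold changes positive. *Rrm1*, the large subunit of ribonucleotide reductase, which makes deoxynucleotides, was at 35.0, 28.2 and 27.2 CPM in (+/−) animals and 23.9, 20.9 and 24.5 CPM in (+/+) animals. The groups did not overlap, with a log2 fold change of 0.39 (95% interval 0.10 to 0.67, edgeR adjusted p = 0.173), and it was 0.26 without (+/−) animal 505, the highest. *Rrm2*, the small subunit, made mainly in S phase, was at 14.0, 11.7 and 9.39 CPM against 10.9, 9.39 and 11.4 CPM, and these groups overlapped (0.15, 95% interval −0.23 to 0.53).
*Tyms*, thymidylate synthase, was at 3.04, 1.81 and 2.70 CPM against 1.46, 1.34 and 2.27 CPM. *Tk1*, the S-phase thymidine kinase, was at 1.43, 1.26 and 1.25 CPM against 0.615, 0.623 and 1.36 CPM. In both genes (+/+) animals 510 and 511 lay below every (+/−) animal and animal 513 lay among them, so that the log2 fold changes of 0.58 and 0.61 had standard errors of 0.28 and 0.34 (edgeR adjusted p = 0.254 and 0.293). Without animal 513 they were 0.84 and 1.07 (edgeR adjusted p = 0.0975 and 0.0393). Leaving out another animal gave as little as 0.42 for *Tyms*, without 505, and 0.40 for *Tk1*, without 510, and neither was then called. *Tk1* overlaps *Gm20708* and *Afmid* on the other strand and had 28 to 65 counts per animal.

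Of the chromatin copying genes, *Uhrf1* and *Chaf1a* had positive and *Chaf1b* and *Dnmt1* negative log2 fold changes. *Uhrf1*, which binds hemimethylated DNA behind the fork and brings DNMT1 to it, was at 8.84, 7.48 and 7.92 CPM in (+/−) animals and 5.13, 4.81 and 6.25 CPM in (+/+) animals. The groups were well apart, with a log2 fold change of 0.58 (95% interval 0.24 to 0.93, unadjusted p = 0.00485, edgeR adjusted p = 0.166), the smallest p of the 44, and leaving out any 1 animal kept it between 0.51 and 0.69. *Chaf1a*, the large subunit of the chromatin assembly factor CAF-1, was at 13.3, 11.9 and 13.4 CPM against 9.66, 9.48 and 10.9 CPM. These groups did not overlap either (log2 fold change 0.36, 95% interval 0.10 to 0.62, edgeR adjusted p = 0.170), and *Chaf1a* overlaps *Ubxn6* on the other strand.
*Chaf1b*, the middle subunit of CAF-1, was at 1.10, 1.16 and 1.43 CPM against 2.07, 1.40 and 1.26 CPM. Only (+/+) animal 510 stood out, and the log2 fold change was −0.37 (standard error 0.25), or −0.13 without it. *Dnmt1*, the maintenance methyltransferase that neurons express as well, had the highest CPM of the group, at 41.2, 40.9 and 45.9 CPM against 40.4, 44.3 and 46.6 CPM. The genotypes overlapped fully, with a 95% interval of −0.25 to 0.18.

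S-phase entry was the one group in which all members had negative log2 fold changes, with a median of −0.49. *Ccne2*, a cyclin E that activates CDK2 at the entry to S phase, was at 2.16, 3.38 and 2.43 CPM in (+/−) animals and 4.11, 5.21 and 3.42 CPM in (+/+) animals. Each (+/−) animal lay below each (+/+) animal, the nearest pair being 506 and 513, with a log2 fold change of −0.68 (95% interval −1.22 to −0.13, edgeR adjusted p = 0.184). *Ccne2* overlaps *Ints8* on the other strand. *Ccne1*, its paralogue, was at 5.95, 9.71 and 7.15 CPM against 11.6, 13.0 and 8.85 CPM.
*Ccne1* thus ran in nearly the same order of animals, but 513 fell below 506 so that the groups overlapped (log2 fold change −0.55, 95% interval −1.05 to −0.05, edgeR adjusted p = 0.201). *E2f1*, an activating E2F, was at 25.2, 26.4 and 21.7 CPM against 32.4, 30.4 and 24.4 CPM, again with 513 among the (+/−) animals (−0.25 ± 0.13 SE, edgeR adjusted p = 0.276). *E2f2*, also an activator, was at 0.925, 0.700 and 0.713 CPM against 1.23, 0.734 and 1.17 CPM, with overlapping groups (−0.42 ± 0.28 SE).

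Levels differed far more between members than between genotypes. Per kilobase of exon, using the exon lengths of the count table, *Rpa1* was the highest with 15.4 ± 1.89 CPM per kb in (+/+) animals (SD, n = 3), followed by *Gins4* with 14.0 ± 0.442 and *Pcna* with 12.9 ± 0.812. *Cdc6* was the lowest at 0.0820 ± 0.0214 CPM per kb, and over all 6 animals *Rpa1* lay 149-fold above it. The 6 subunits of the MCM2-7 ring, which assemble in equal numbers, were not at equal mRNA levels by this measure: over all animals *Mcm4* was at 6.10, *Mcm7* at 3.53, *Mcm6* at 2.94, *Mcm3* at 1.87, *Mcm2* at 1.34 and *Mcm5* at 0.686 CPM per kb. The exon length of a gene (3589 bases for *Mcm4*, 6956 for *Mcm2*) need not be that of the transcript it expressed. How far this shifts the levels per length was not tested. Neighbours in the order of all 44 were mostly not separable, since the ranges over 6 animals overlapped in 40 of 43 neighbouring pairs. The 3 that separated were *Pcna* and *E2f1*, *Rpa2* and *Mcm6*, and *Prim1* and *Tyms*. Overlaps of members with other genes, here and above, are of spans from gene start to gene end, and whether exons overlap was not tested. Of further members that could share reads, *Orc1*, *Orc6*, *Cdc45*, *Gins2*, *Rfc4*, *Rfc5*, *Fen1* and *Lig1* overlap a gene on the other strand. On the same strand, *Pole2* overlaps *Gm49384* and *Rpa1* overlaps *Gm47300*, which held 4.36% as many counts as *Rpa1*.

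**Figure D3:**
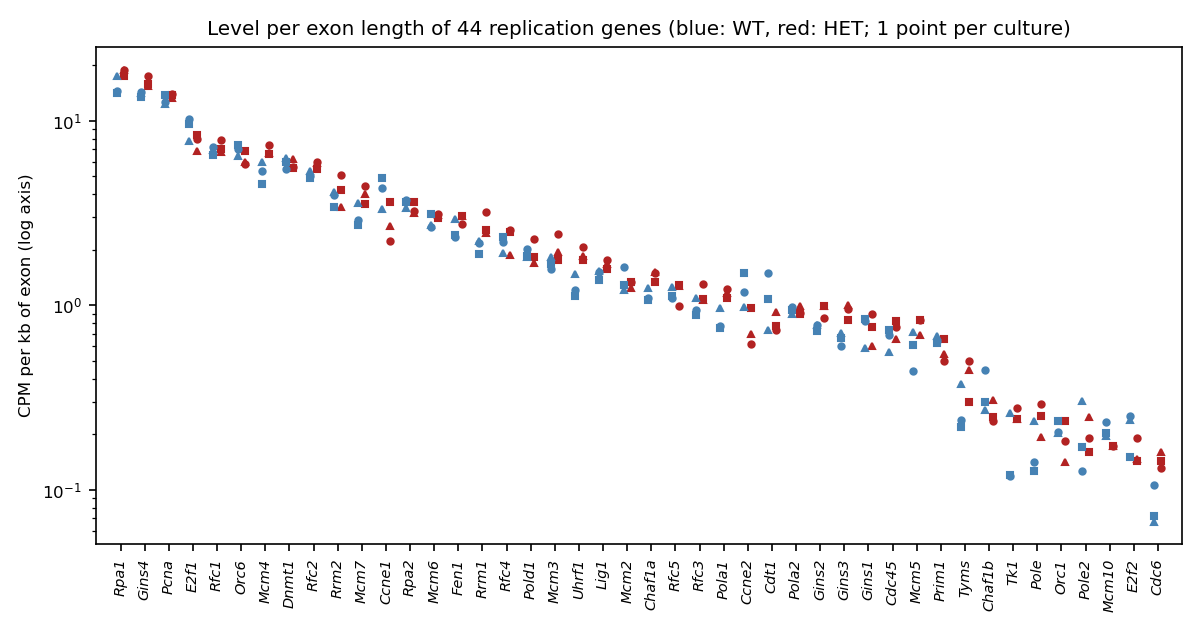
CPM per kilobase of exon (log axis) of the 44 genes in order of their mean, with 1 point for each WT (+/+) culture in blue and each HET (+/−) culture in red. *Rpa1*, *Gins4* and *Pcna* form the top, and the genes span 149-fold.

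E2F motifs were frequent in these promoter windows. Of the 37 members with a window 16 (43.2%) held at least 1 motif, against 2.60% of 27025 genes with a window, which describes the list and not the genotypes. There were 23 matches in the 16 members, of which 14 began within 50 bases of the start site, and 6 members had more than 1. Some matches overlapped each other, as in *Mcm5* and *Mcm6*. Members with a motif had a median log2 fold change of 0.21 (12 of 16 positive) and those with a window but no motif 0.07 (12 of 21 positive). The ranges of these 2 sets overlapped almost fully, −0.46 to 0.80 against −0.55 to 0.61. The 7 members with no window had a median of 0.22 (6 of 7 positive), much like that of the members with a motif. *E2f2* and *Cdt1*, both with a motif, had negative values.
The MYT1L motif AAAGTT, searched on both strands, was in the windows of 6 of 37 members (16.2%: *Cdt1*, *Dnmt1*, *Mcm5*, *Mcm7*, *Orc1* and *Rpa1*) and of 15.9% of all genes. Of these 6, *Mcm5*, *Mcm7* and *Rpa1* had positive and the other 3 negative log2 fold changes. A CCAAT box, on either strand, was in 23 of 37 (62.2%) and in 41.1% of all genes. No search found binding, only letters.

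**Figure D4:**
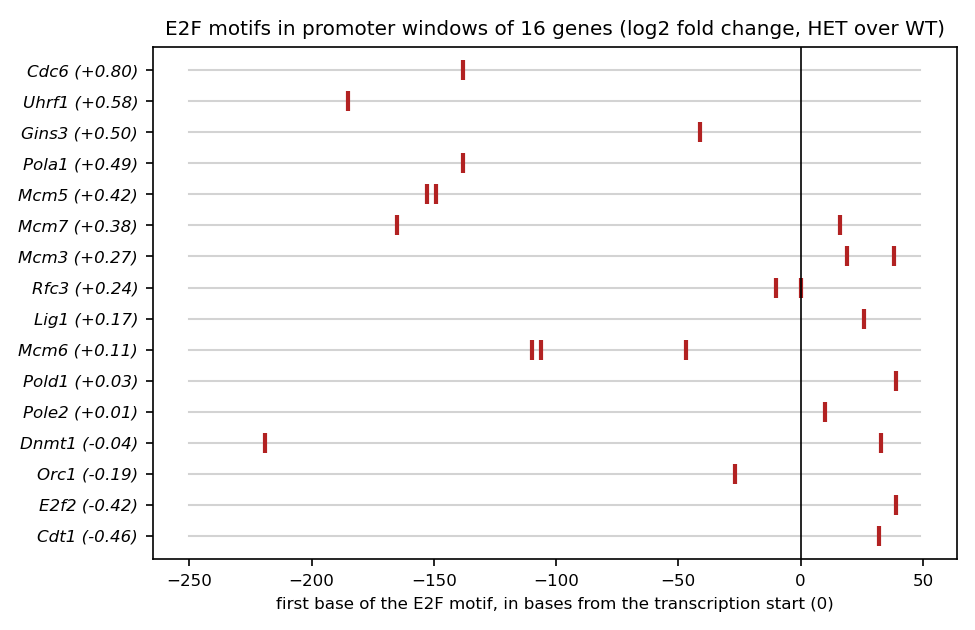
The first base of each E2F motif (red mark) along the promoter window (grey line, x axis in bases from the RefSeq start site at 0) of the 16 members that hold one, ordered by log2 fold change, HET (+/−) over WT (+/+), in brackets. A gene with several start sites has its windows laid over each other, and the marks run from −219 to 39.

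Of 37 tested among 38 further replication genes, such as the remaining origin, polymerase and clamp loader subunits, 3 (8.11%) had a positive and 2 (5.41%) a negative log2 fold change at an unadjusted p under 0.05, where 13.2% and 9.11% of all tested genes did, and the median was 0.08. *Atad5*, which unloads PCNA, was at 13.2, 11.6 and 12.05 CPM against 7.84, 7.77 and 9.72 CPM (log2 fold change 0.54, edgeR adjusted p = 0.166), and the groups did not overlap. *Cdc7*, the kinase that fires licensed origins, was at 4.21, 4.27 and 4.94 CPM against 6.47, 6.03 and 5.43 CPM (−0.42, edgeR adjusted p = 0.182), apart in the other direction. *Mtbp*, a partner of Treslin in origin firing, had a log2 fold change of 0.51 with groups that did not overlap.
Among 28 other E2F, Rb and G1 cyclin genes 6 (21.4%) had a positive and 1 (3.57%) a negative log2 fold change at an unadjusted p under 0.05, with a median of 0.18. *Mybl2*, an E2F target that activates later cell cycle genes, was at 2.56, 2.05 and 2.56 CPM against 1.33, 1.18 and 1.24 CPM (0.93 ± 0.19 SE, edgeR adjusted p = 0.166). *Ccna2*, the S-phase cyclin that follows cyclin E, was at 4.54, 3.55 and 4.15 CPM against 2.96, 2.72 and 2.83 CPM, and *Cdk6* had a log2 fold change of 0.66. Both cyclin E genes thus had negative and cyclin A2 a positive log2 fold change, and none of the 3 passed the adjusted threshold. The 25 mitosis genes had a median of 0.47, with 13 (52.0%) positive and 0 negative at an unadjusted p under 0.05, led by *Hmmr*, *Kif11* and *Ccnb2* (0.69, 1.09 and 0.91).

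Genes that move or modify deoxynucleosides, and with them Ara-C, are given because every culture received the drug. Of 16 such genes 11 had negative log2 fold changes, 3 of them (18.8% of the 16, against 9.11% of all genes) and 1 positive one (6.25%, against 13.2%) at an unadjusted p under 0.05, and the median was −0.12. *Slc29a2*, a nucleoside transporter, was at 9.92, 13.5 and 12.3 CPM in (+/−) and 22.2, 21.7 and 16.2 CPM in (+/+) animals. Its groups were apart (−0.75 ± 0.17 SE, edgeR adjusted p = 0.166). *Slc29a1*, the main equilibrative transporter, had a log2 fold change of −0.42 with groups that overlapped, and *Cmpk2*, a mitochondrial nucleotide kinase, one of 0.34. Whether Ara-C uptake differed was not tested.

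Markers of the cell types that such a culture can hold are given beside these values. All 12 neuronal markers had negative log2 fold changes, and their summed level was 2807 to 5324 CPM in (+/−) and 5399 to 6250 CPM in (+/+) animals. Animal 505 held the lowest sum, and animals 506 and 508 were at 4850 and 5324 CPM. The groups overlapped in 7 of the 12 (58.3%, against 70.9% of all tested genes). An unadjusted p under 0.05 was found in 2 of them (16.7%, against 9.11% of all genes with a negative log2 fold change). All 8 ependymal markers were positive (1067 to 1237 against 582 to 806 CPM), all 12 microglial markers (159 to 305 against 111 to 148 CPM), all 8 fibroblast markers (446 to 1804 against 219 to 924 CPM) and 6 of 7 choroid plexus markers (392 to 1541 against 86.4 to 270.3 CPM). The groups overlapped in all 8 fibroblast markers. Their sum was 1804 CPM in (+/−) animal 505, while animals 506 and 508, at 565 and 446 CPM, lay below the 924 CPM of (+/+) animal 511. Astrocyte markers were positive in 8 of 10 (11980 to 13196 against 8668 to 13155 CPM), endothelial markers in 5 of 6 (27.3 to 60.9 against 17.3 to 25.7 CPM) and oligodendrocyte precursor markers in 3 of 4 (55.2 to 81.5 against 33.6 to 56.5 CPM). Neural progenitor markers were positive in 5 of 9 (855 to 1123 against 704 to 912 CPM). Of defining markers, *Gpr17* was at 0 counts in 4 animals, and *Sox10*, *Eomes* and *Cldn5* stayed at or below 0.154 CPM. The part of cell composition in the differences of the replication genes was not tested.

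The place of single animals bears on these values. In 20 of the 30 members with a positive log2 fold change (+/+) animal 513 was the highest (+/+) animal, and in 11 of the 14 with a negative one it was the lowest. These places were not counted over all genes, so they cannot be read as a trait of the replication genes. On the mean log2(CPM + 0.1) scale, relative to the (+/+) mean, the nucleotide synthesis genes of animal 513 lay at 0.33. This was within the 0.29 to 0.65 of the (+/−) animals, and its astrocyte markers at 0.31 were within their 0.22 to 0.45. In other lists animal 513 lay below every (+/−) animal. Its fibroblast markers were at −1.04, against 0.0053 to 2.43 in (+/−) animals. Choroid plexus markers were at −0.50, against 0.88 to 2.09, and endothelial markers at −0.46, against 0.20 to 1.13. Without animal 513 edgeR called 13 members at an adjusted p under 0.1. *Chaf1a*, *Mcm4*, *Mcm7*, *Pola1*, *Pole*, *Rpa1*, *Tk1*, *Tyms* and *Uhrf1* were then called with a positive fold change, where 12.3% of 18638 genes were, and *Ccne1*, *Ccne2*, *Cdt1* and *E2f1* with a negative one, where 5.95% were.
Animal 505 was the highest (+/−) animal in 22 of the 30 positive members, a place that was not counted over all genes either. Picking members by a positive sign itself favours a high (+/−) animal. Animal 505 also had the lowest neuronal and the highest microglial sum. Animal 511 held 18805 *Xist* counts, where the other 5 held 5 to 10, although all are labelled male. Genetic sex as a covariate removes animal 511 from the comparison. In that fit 2 of the 44 members had a positive and 0 a negative log2 fold change at an unadjusted p under 0.05. Of all genes 6.92% and 3.06% did. The same member counts were found without animal 511, where 7.02% and 3.03% of all genes did. In neither fit was the share of positive members above that of all genes. The median of the members stayed positive, at 0.15 in both.

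**Figure D5:**
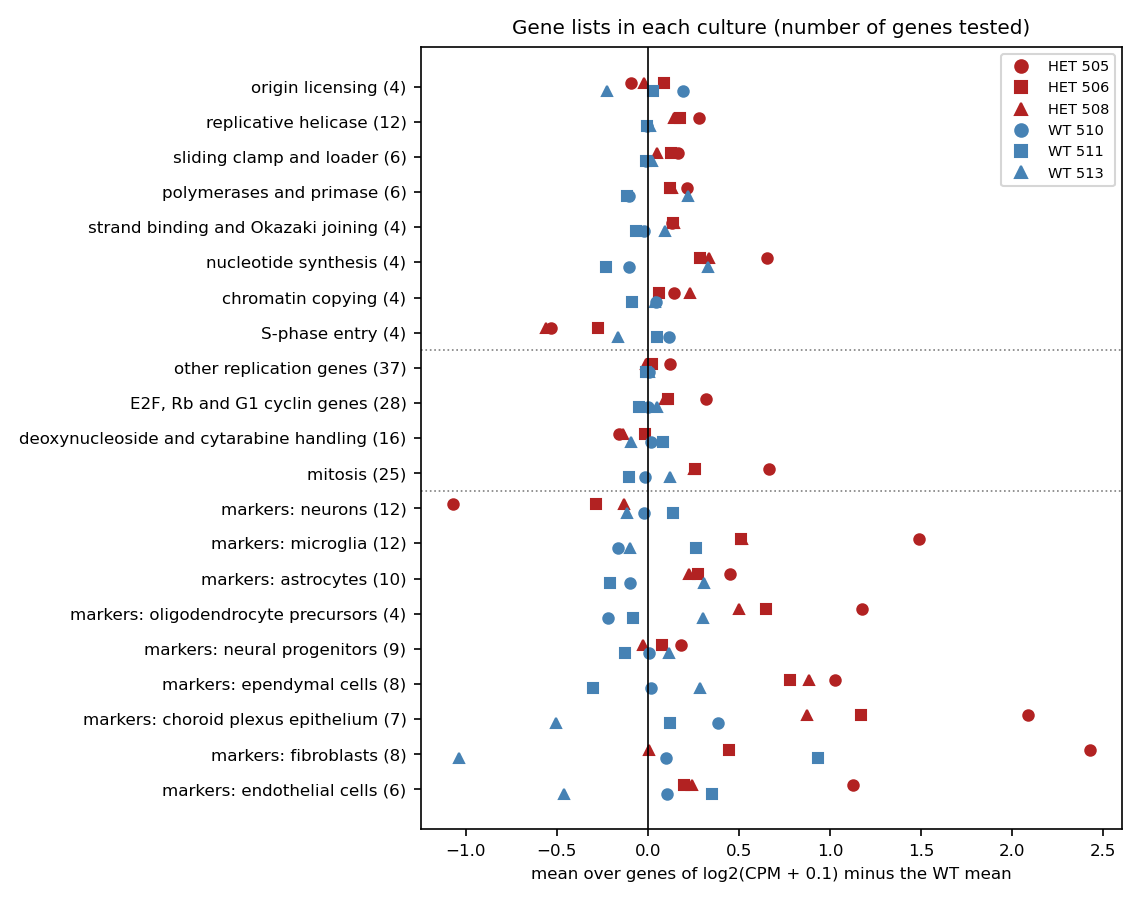
Mean over the genes of a list of log2(CPM + 0.1), relative to the mean of the 3 WT (+/+) cultures (x axis), for each culture and list, HET (+/−) in red and WT in blue. The 8 groups of replication genes (top) spread by less than 1 unit while the marker lists (bottom) reach from −1.07 to 2.43. WT 513 lies near the HET cultures for nucleotide synthesis and astrocytes, and below all of them for fibroblasts, choroid plexus and endothelial cells.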

How the data were processed

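Raw counts for every gene in each library are what the authors deposited and what was used here. They come from 100 bp paired-end reads of dUTP libraries, which keep the strand, aligned to mm10 with STAR. The counting tool was not stated in the labels or methods. The deposited normalised counts and the authors' table of shrunken log2 fold changes, p-values and adjusted p-values were not used. Libraries of 1 animal were added up, since over the 44 members they differed by a chi-square per degree of freedom of 0.856 to 1.21, against 2.15 to 20.7 between animals. Genes were tested with edgeR 4.0.16 in R 4.3.3: its low-count filter, TMM, the quasi-likelihood F test and Benjamini-Hochberg adjustment over 18264 genes. The SE is the absolute log2 fold change divided by the square root of F. Alternatives were DESeq2 1.42.0, its size factors, other low-count filters, each library alone, a covariate for genetic sex, and leaving out each animal. The fit was tested on simulated data.

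The members, the role groups and the other lists were chosen with earlier results of these data known. In each role group the 3 members with the smallest p and the one with the highest CPM are given by animal, and of each other pathway list the 3 genes with the smallest p. Counts limit precision for the lowest members. Exon lengths, gene positions and gene names are those of the count table. Motifs were searched in RefSeq promoter windows.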

Additional observations from a re-analysis of the deposited data

How the results depend on the processing

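The call of members at an adjusted p under 0.1 depended on the test and on 1 animal. DESeq2 called 2163 genes and 6 members, and edgeR without a low-count filter 1475 genes and 1 member. Leaving out 1 animal gave 0 to 3403 genes and 0 to 13 members, and (+/+) animal 513 was the one whose absence gave any. DESeq2's size factors, a filter of 50 counts in 3 animals (40 members left), genetic sex as a covariate and each library alone gave 0. At an unadjusted p under 0.05, the covariate left 2 members above 0 and 0 below, and leaving out 1 animal 2 to 13 and 0 to 4, where 6.70% to 18.1% and 3.03% to 12.5% of all genes were. With 1 animal left out 11 to 20 members had every (+/−) animal above every (+/+) animal, where 17.3% to 28.4% of all genes did, and the median log2 fold change ran from 0.11 to 0.17. The 20 members (45.5%), the 28.4% and the 13 members belong to the comparison without animal 513. No paired analysis was possible because the numbers in the labels are animals of 1 genotype and libraries within an animal. The cause of these changes was not tested.

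Signs turned mostly in members with values near 0, but also in *Orc1* and *Rrm2*, at −0.19 and 0.15 with all animals and libraries. The log2 fold change of *Gins1* was −0.000088 with DESeq2's size factors, −0.000091 with DESeq2, −0.000048 without a filter and −0.12 in library 1 alone. In library 1 alone *Orc1* was at 0.027 and *Pole2* at −0.062. With the covariate *Pole2* was at −0.083, and *Pola2* was at 0.0042 with the stricter filter and 0.10 in library 2 alone. With 1 animal left out *Gins1* ran from −0.15 to 0.14, *Mcm2* from −0.16 to 0.052, *Rfc5* from −0.046 to 0.14, *Pold1* from −0.11 to 0.11, *Pola2* from −0.059 to 0.011, *Pole2* from −0.25 to 0.42, *Rrm2* from −0.0015 to 0.28 and *Dnmt1* from −0.10 to 0.0013.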
